A study of Mus musculus with 16 samples.

Results

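The genes described are 46 interferon-stimulated and class I antigen presentation genes, given as a list of symbols and picked out by their symbol in the platform annotation, and 41 of them were measured, among 19938 genes in all. A gene on more than 1 probe set was represented by its brightest, judged by the mean of the 16 arrays. Isg15, Gbp2, Ifi47 and Igtp were found only on probe sets annotated with several symbols and were not named from those, and Ifi44 had no probe set named here. No filter on low values was applied, so all 41 measured members entered every test. The members fell into 6 transcription factors, 25 antiviral effectors and sensors, 3 interferon-induced GTPases and 7 genes of class I antigen processing.

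Expression had been profiled on Affymetrix whole-transcript arrays in 2 mouse clones of CD8 T cells, with 4 arrays in each of 4 groups. The groups were the unconventional clone with anti-CD3 and cyclosporine A (CsA), the unconventional clone with anti-CD3 alone, the conventional clone with anti-CD3 and CsA, and the conventional clone with anti-CD3 alone. The labels call the unconventional clone resistant to CsA and the conventional clone sensitive to it, and CsA was used at 1 ug per ml. CsA, bound to its cellular receptor cyclophilin, blocks the phosphatase calcineurin and with it the activation of NFAT transcription factors. All 16 arrays came from cells activated with an immobilized antibody against the CD3 chains of the T cell receptor, in RPMI to which no recombinant cytokine was added. Before that, all had been grown in a cytokine mixture that held an interferon alpha and interferon gamma besides IL-1a, IL-6, IL-7, IL-15 and TNF. Each kind of cell was represented by 1 clone, so a difference between the kinds and a difference between these clones cannot be told apart. Unstimulated cells were not analysed here, and the labels do not give the time of activation.

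Interferons bind surface receptors whose Janus kinases phosphorylate STAT proteins. Type I interferons act through a complex that includes STAT2 and IRF9 and binds the interferon-stimulated response element (ISRE), and interferon gamma acts largely through the gamma-activated site (GAS). The induced genes include antiviral effectors, the interferon-regulatory factors that carry the response further, and the machinery that cuts peptides and loads them onto class I molecules, the ligands that CD8 T cells recognise. Activated CD8 T cells are a main source of interferon gamma and respond to it themselves.

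All levels below are log2 expression values as deposited, and all changes are differences of log2 means with their standard error (SE), so that a difference of 1 is a 2-fold change. Calls rest on a threshold of 0.05 for the p adjusted over all 19938 genes. Levels of different genes come from different probes, so the rankings, sums and common limits over genes given below are rough. The 16 array medians lay between 5.16 and 5.35, arrays of a group correlated at 0.9947 to 0.998, and no pair was identical. The labels do not say that the 4 arrays of a group came from separate cultures, so p-values cover only the spread of these samples and that spread could be technical. Of 14 CD8 T cell markers, only Cd2 and Cd5 had a group mean below 5, Cd2 in all 4 groups and Cd5 in the unconventional clone. The CD8 chains themselves moved with clone and drug: Cd8a averaged 8.56 in the unconventional clone with CsA, 10.31 in it with anti-CD3 alone, 11.92 in the conventional clone with CsA and 12.50 in it with anti-CD3 alone, and Cd8b1 averaged 10.26, 10.24, 12.31 and 12.31 in the same order. Cd4 stood between 4.21 and 4.32, while Zbtb7b, a factor of the CD4 lineage, averaged 7.07, 6.54, 6.67 and 6.21. Of 21 markers of macrophages and dendritic cells, 17 or 18 were below 5 in each group, among them Csf1r, Lyz2, Adgre1 and C1qa, and the log2 of their summed level ran from 10.83 to 11.05 in the unconventional clone with CsA, from 10.26 to 10.53 in it with anti-CD3 alone, from 11.15 to 11.29 in the conventional clone with CsA and from 10.20 to 10.35 in it with anti-CD3 alone. The brightest of these was Itgax (10.04, 9.28, 10.23 and 8.91), called higher with CsA in both clones, followed by Cd68 (9.13, 8.71, 8.05 and 7.26) and Tlr4 (4.12, 4.32, 9.09 and 7.77). Of 8 B cell markers, 7 or 8 averaged below 5 in each group, and of 12 fibroblast and epithelial markers 5 or 6 did. With CsA, 7 of the 8 and 9 of the 12 were not called in the unconventional clone, where 24.9% of all genes were called. In the conventional clone 7 and 11 were not called, where 31.4% of all genes were. Single genes of these lists moved with clone or drug, among them the B cell factor Ebf1 (3.80, 3.94, 4.93 and 7.79) and the epithelial cadherin gene Cdh1 (9.22, 7.12, 5.05 and 5.03). The part of these genes in the results below was not tested. Fewer cells with a transcript and less transcript per cell cannot be told apart in these bulk samples.

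Stretches upstream of 7 members and the stretch shared by Tap1 and Psmb9 are shown because these genes carry the results below, or, for Ifit1, because it stayed near background. They come from the RefSeq promoter table for GRCm38.p6, which covers 250 bases before to 50 after each start, and 31 of the 41 measured members matched an entry. Capitals mark the ISRE core (GAAA, any 2 bases, GAAA) and the GAS core (TTC, any 3 bases, GAA) on either strand, overlapping matches run together, and in the stretch of Tap1 and Psmb9 they mark a GC box, GGGCGG, on either strand. Each is written 5′ to 3′ on the gene's strand.
Irf1: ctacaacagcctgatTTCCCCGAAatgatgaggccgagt
Gbp3: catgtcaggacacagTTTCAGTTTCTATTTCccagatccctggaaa
Gbp5: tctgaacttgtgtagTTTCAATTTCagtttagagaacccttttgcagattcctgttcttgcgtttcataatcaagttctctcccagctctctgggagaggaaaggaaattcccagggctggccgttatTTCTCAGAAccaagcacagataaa
Irgm1: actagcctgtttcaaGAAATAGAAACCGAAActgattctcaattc
Ifi205: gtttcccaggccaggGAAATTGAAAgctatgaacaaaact
Bst2: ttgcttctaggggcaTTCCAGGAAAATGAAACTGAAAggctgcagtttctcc
Ifit1: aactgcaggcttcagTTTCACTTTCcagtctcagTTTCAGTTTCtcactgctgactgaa
Tap1-Psmb9: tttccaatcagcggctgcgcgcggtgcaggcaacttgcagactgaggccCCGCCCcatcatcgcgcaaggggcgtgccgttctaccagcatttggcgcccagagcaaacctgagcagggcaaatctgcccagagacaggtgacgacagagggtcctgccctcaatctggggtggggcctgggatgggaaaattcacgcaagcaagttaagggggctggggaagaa

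The positions are chr11:53769909-53769947 on the plus strand for Irf1, chr3:142559984-142560029 and chr3:142496754-142496905 on the plus strand for Gbp3 and Gbp5, chr11:48871421-48871465 on the minus strand for Irgm1, chr1:174031865-174031904 on the minus strand for Ifi205, chr8:71537572-71537623 on the minus strand for Bst2 and chr19:34640770-34640828 on the plus strand for Ifit1. The last stretch, chr17:34187331-34187555, is written on the plus strand and fills the 225 bases between the starts of Psmb9, which is read leftward, and Tap1, which is read rightward. An ISRE core was found in the windows of 15 of the 31 matched members (48.4%), against 3.99% of the 27025 genes in the table. A GAS core was found in 11 of 31 (35.5%), against 9.55% of genes, and a GC box in 15 of 31 (48.4%), against 38.2%. These matches describe letters and are not evidence of binding. In the printed stretches Irf1 held a GAS core alone and Ifi205 an ISRE core alone, and Gbp5 and Bst2 held both cores. Gbp3, Irgm1, Ifit1 and Bst2 held an ISRE core more than once, and the stretch of Tap1 and Psmb9 held neither core. The whole window held 2 ISRE cores for Ifi205 and 2 GAS cores for Gbp5, of which the printed stretch shows only 1 each.

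CsA was followed by different changes of these genes in the 2 clones. In the unconventional clone 22 of 41 members were higher with CsA and 4 were lower, against 12.6% and 12.3% of all genes (24.9% either way). In the conventional clone 7 were higher and 16 lower, against 15.9% and 15.5% of all genes (31.4% either way). The median change of the members was 0.29 in the unconventional clone and -0.05 in the conventional clone, where the medians of all genes were 0.02 and 0.02. In the unconventional clone the median ran from 0.21 to 0.30 when single arrays were left out, lowest without anti-CD3 replicate 1. It was 0.24 under cyclic loess scaling and with centred arrays, and 0.23 with array weights. Without single arrays the median in the conventional clone ran from -0.09 to -0.05, lowest without conventional CsA replicate 3, and it passed 1.5 times the reported value without any of conventional CsA replicates 1, 2 and 3 and conventional anti-CD3 replicates 1 and 4. These medians describe mixtures: changes ran from -0.92 to 1.28 in the unconventional clone and from -3.05 to 1.28 in the conventional clone. With each array centred on its median, 40.1% of all called genes in the unconventional clone were higher, against 50.7% as reported, and 78.3% of the called members, against 84.6%.

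**Figure D1:**
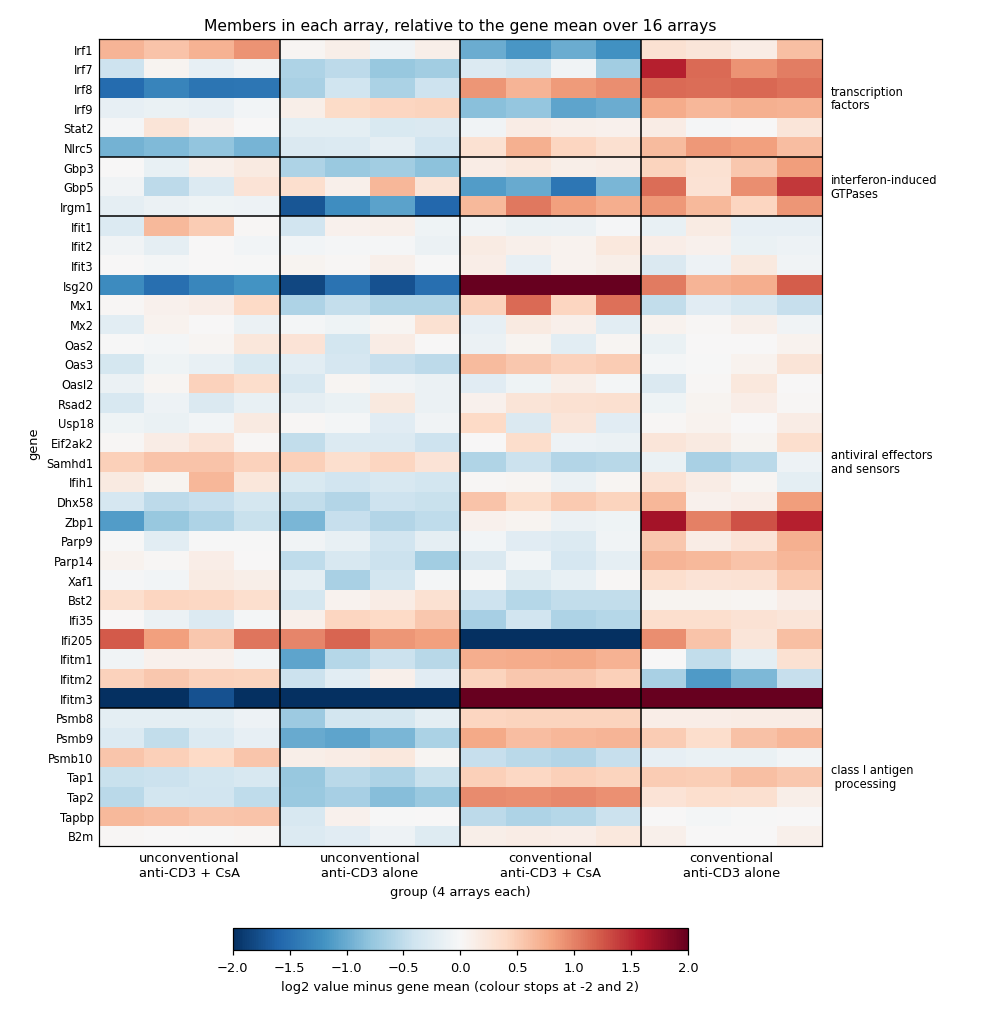
Each member in each of the 16 arrays, as its log2 value minus the gene's mean over all arrays, with rows grouped by role and columns by group, 4 arrays each; colours stop at -2 and 2. Irf1, Irf7, Irf9 and Gbp5 are paler or bluer in the conventional clone with CsA than with anti-CD3 alone, and Ifitm3 and Isg20 separate the clones in all arrays.

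The arrays of the groups with CsA and with anti-CD3 alone did not overlap for 21 members in the unconventional clone, 17 above and 4 below, against 27.2% of all genes. In the conventional clone they did not overlap for 24 members, 8 above and 16 below, against 30.5% of all genes. Changes of at least 2-fold were fewer: 2 members rose and 0 fell in the unconventional clone, where 1.23% and 1.07% of all genes did, and 3 rose and 6 fell in the conventional clone, where 2.37% and 2.69% did.

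Tested directly, the effect of CsA in the unconventional clone was above that in the conventional clone for 19 members and below it for 5, against 8.51% and 7.78% of all genes (16.3% either way). The median difference of effects was 0.34 over the members and 0.00 over all genes. Differences of at least 2-fold numbered 10 above, against 1.66% of all genes, and 0 below, against 1.46%. The CsA effects of the 2 clones share no arrays. Read together, 8 members were called higher with CsA in the unconventional clone and lower in the conventional clone (19.5% of 41), namely Irf1, Irf7, Gbp3, Parp14, Tapbp, Psmb10, Bst2 and Xaf1, and 111 of all genes showed that pattern (0.557%). The opposite pattern was found for 0 members and for 0.562% of all genes. Of the 8, Xaf1 was near background, at 4.81 or less in all arrays, and its arrays overlapped in the unconventional clone. Another 6 members, Ifitm1, Ifitm2, Isg20, Mx1, Psmb8 and Tap2, rose in both clones (14.6%, against 7.81% of all genes), and Irf8, Irf9, Nlrc5 and Ifi35 fell in both (9.76%, against 8.46%). A further 8 were called only in the unconventional clone (19.5%, against 7.54% of all genes), 5 only in the conventional clone (12.2%, against 14.1%) and 10 in neither (24.4%, against 61.0%). These last counts do not test whether the clones differ.

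**Figure D2:**
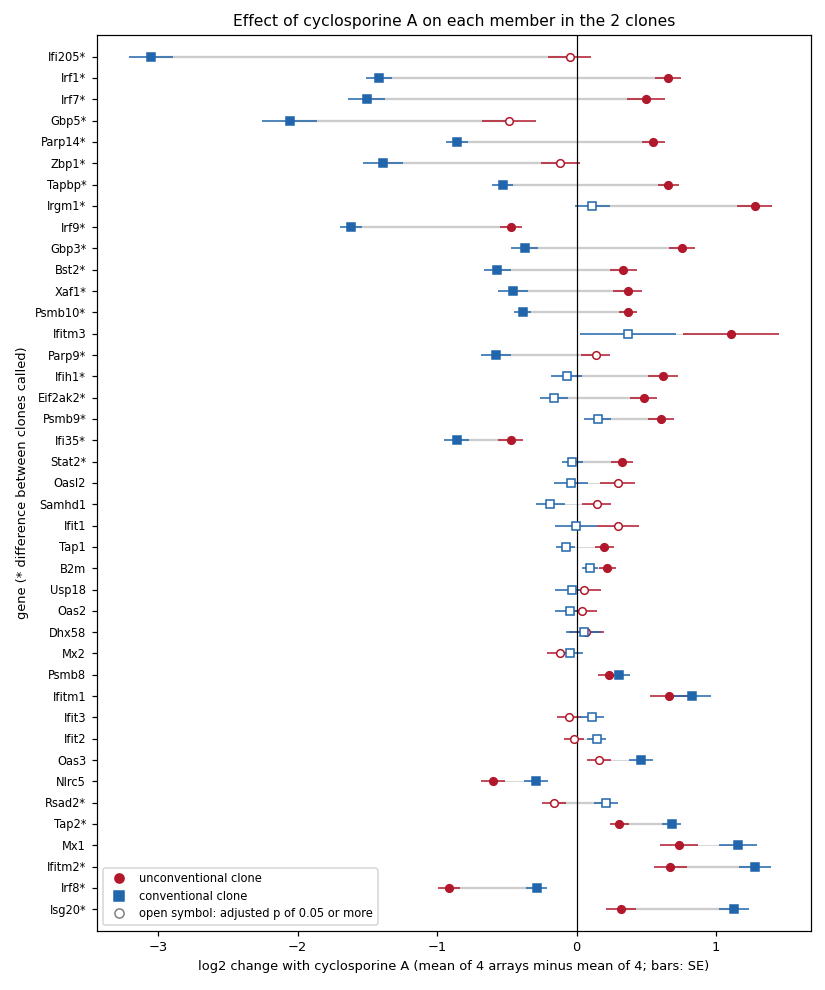
Log2 change with CsA for each of the 41 members, in the unconventional clone (circles) and the conventional clone (squares), with SE bars and 4 arrays in each group, ordered by the difference of the effects. The widest gaps, for Ifi205, Irf1 and Irf7, come with changes of -3.05, -1.42 and -1.51 in the conventional clone; filled symbols are called and an asterisk marks a called difference.

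The transcription factors carried some of the largest differences. Irf1, a factor that interferon gamma induces and that drives class I processing genes, had 7.41, 7.31, 7.43 and 7.63 in the unconventional clone with CsA, against 6.78, 6.85, 6.67 and 6.85 with anti-CD3 alone. Irf1 had 5.75, 5.57, 5.75 and 5.53 in the conventional clone with CsA, against 7.04, 6.98, 6.89 and 7.34 with anti-CD3 alone. In neither clone did the arrays overlap, and the order was opposite in the 2 clones. The change was 0.66 (SE 0.09, adjusted p = 2.1e-05) in the unconventional clone and -1.42 (SE 0.09, adjusted p = 2.9e-10) in the conventional clone, a difference of 2.07 (SE 0.13, adjusted p = 1.5e-09). A dimmer second probe set of Irf1, with group means between 4.81 and 5.07, was called in no contrast.

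Irf7, the factor that amplifies type I interferon production, had 4.99, 5.46, 5.25 and 5.33 in the unconventional clone with CsA, against 4.78, 4.89, 4.65 and 4.71 with anti-CD3 alone. Irf7 had 5.13, 5.03, 5.33 and 4.70 in the conventional clone with CsA, against 6.95, 6.54, 6.31 and 6.42 with anti-CD3 alone. The conventional clone with anti-CD3 alone stood apart from the 3 other groups, which were dim. The change with CsA was 0.50 (SE 0.14, adjusted p = 0.0089) in the unconventional clone and -1.51 (SE 0.14, adjusted p = 2.3e-08) in the conventional clone.

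Irf9, the DNA-binding part of the type I interferon complex, fell in both clones, less in the unconventional one. It averaged 7.47 ± 0.05 in the unconventional clone with CsA and 7.95 ± 0.15 with anti-CD3 alone (SD, n = 4 each), a change of -0.47 (SE 0.08). Irf9 averaged 6.69 ± 0.13 in the conventional clone with CsA and 8.31 ± 0.04 with anti-CD3 alone (SD, n = 4 each), a change of -1.62 (SE 0.08). The difference of these effects was 1.15 (SE 0.11, adjusted p = 3.8e-07).

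Stat2, its partner, moved little: it changed by 0.33 (adjusted p = 0.0035) in the unconventional clone and by -0.03 (adjusted p = 0.83) in the conventional clone. The difference of 0.36 (adjusted p = 0.033) was lost with centred arrays (adjusted p = 0.1545) and without any of 7 arrays (adjusted p 0.0549 to 0.0794), unconventional CsA replicates 2 and 3, unconventional anti-CD3 replicates 3 and 4, conventional CsA replicate 1 and conventional anti-CD3 replicates 1 and 4. Irf8, a factor of interferon gamma responses best known from myeloid cells and also present in effector CD8 T cells, was lower with CsA in both clones. It had 9.10, 9.32, 9.17 and 9.19 in the unconventional clone with CsA, against 9.99, 10.23, 10.00 and 10.22 with anti-CD3 alone, a change of -0.92 (SE 0.08, adjusted p = 2.0e-08). Irf8 had 11.52, 11.32, 11.48 and 11.57 in the conventional clone with CsA, against 11.77, 11.75, 11.78 and 11.74 with anti-CD3 alone, a change of -0.29 (SE 0.08, adjusted p = 0.0057). The difference of the Irf8 effects was -0.63 (SE 0.11, adjusted p = 2.6e-04).

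Nlrc5, the transactivator of class I genes, changed by -0.60 (SE 0.09, adjusted p = 2.7e-05) with CsA in the unconventional clone and by -0.29 (SE 0.09, adjusted p = 0.015) in the conventional clone, where the call was lost without any of 3 arrays, CsA replicates 1 and 4 and anti-CD3 replicate 2 (adjusted p 0.0556 to 0.0587). Of its 19 probe sets, 15 were called lower in the unconventional clone and 13 in the conventional clone, and none was called higher. The difference of the effects, -0.31, was not called (adjusted p = 0.11).

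For the 3 measured members among the interferon-induced GTPases, which assemble on the membranes of intracellular pathogens, the CsA effect was called higher in the unconventional clone than in the conventional clone, against 8.51% of all genes. Of 10 further genes of this kind, the difference was called higher for 2, Gm12250 (1.16) and Iigp1 (0.96), lower for 1, Gbp4 (-0.69), and not called for 7. Of all genes, 7.78% were called lower in this difference. Gbp3, a guanylate-binding protein, had 8.61, 8.46, 8.71 and 8.78 in the unconventional clone with CsA, against 7.98, 7.86, 7.92 and 7.78 with anti-CD3 alone. Gbp3 had 8.75, 8.82, 8.72 and 8.76 in the conventional clone with CsA, against 9.05, 8.91, 9.14 and 9.44 with anti-CD3 alone. The arrays did not overlap in either clone, and the changes were 0.75 (SE 0.09, adjusted p = 4.5e-06) and -0.37 (SE 0.09, adjusted p = 0.0040), with a difference of 1.13 (SE 0.13, adjusted p = 4.2e-06).

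Gbp5, a guanylate-binding protein that promotes inflammasome assembly, had 6.10, 5.65, 5.89 and 6.44 in the unconventional clone with CsA, against 6.51, 6.26, 6.82 and 6.42 with anti-CD3 alone, and these arrays overlapped. Gbp5 had 5.04, 5.16, 4.72 and 5.25 in the conventional clone with CsA, against 7.28, 6.46, 7.09 and 7.57 with anti-CD3 alone. The change was -2.06 (SE 0.19, adjusted p = 4.5e-08) in the conventional clone, it was not called in the unconventional clone (-0.49, adjusted p = 0.081), and the difference was 1.57 (SE 0.28, adjusted p = 3.4e-04).

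Irgm1, an immunity-related GTPase that controls the other members of its family, gave the largest called rise among the members in the unconventional clone. It had 8.22, 8.27, 8.31 and 8.28 there with CsA, against 6.68, 7.15, 7.33 and 6.81 with anti-CD3 alone, a change of 1.28 (SE 0.13, adjusted p = 2.0e-07). Irgm1 had 9.05, 9.45, 9.22 and 9.12 in the conventional clone with CsA, against 9.26, 9.04, 8.83 and 9.27 with anti-CD3 alone, and these arrays overlapped (0.11, adjusted p = 0.59). The difference was 1.17 (SE 0.18, adjusted p = 7.7e-05).

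**Figure D3:**
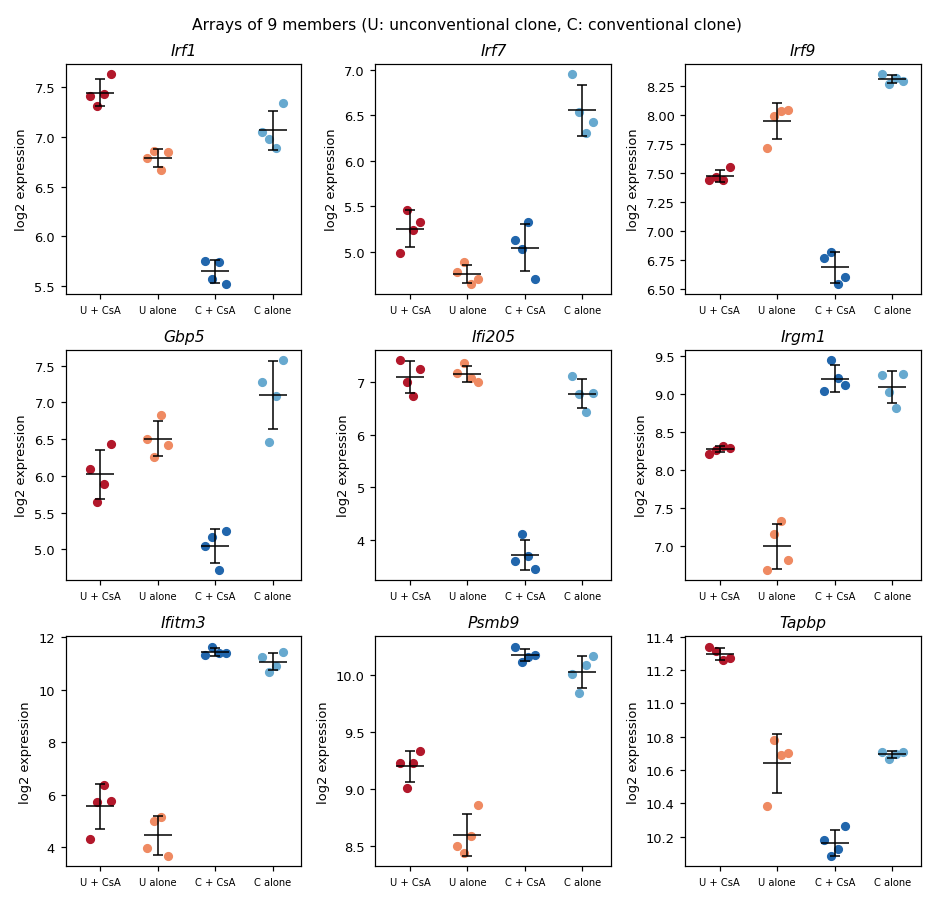
Log2 values of 9 members in each array (points), with mean and SD (bars, n = 4), for the unconventional clone (U) and the conventional clone (C), with CsA or with anti-CD3 alone; each panel has its own vertical axis. Irf1 and Tapbp are higher with CsA in U and lower in C, Ifi205 drops in C with CsA to between 3.46 and 4.13, and Ifitm3 lies below 6.5 in all arrays of U and above 10.6 in all arrays of C.

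Among the antiviral effectors and sensors, 10 of 25 measured members rose and 1 fell with CsA in the unconventional clone, and 5 rose and 7 fell in the conventional clone. The shares of all genes were 12.6% higher and 12.3% lower in the unconventional clone, and 15.9% and 15.5% in the conventional clone. Many of the classical genes stayed near background: 9 members did not reach 5.5 in any of the 16 arrays, a limit chosen after the values were seen. They were Ifit1, Ifit2 and Ifit3, which bind foreign RNA, the GTPase Mx2, Oas2 and Oasl2 of the 2′-5′ oligoadenylate synthetase family, Rsad2, Usp18, which removes ISG15 from proteins, and Xaf1. Ifit1 ran from 3.65 to 4.56 in the unconventional clone with CsA, from 3.55 to 4.02 in it with anti-CD3 alone, from 3.79 to 3.90 in the conventional clone with CsA and from 3.75 to 4.09 in it with anti-CD3 alone, and it was called in no contrast as reported. Without unconventional CsA replicate 1, Ifit1 was called with CsA in the unconventional clone (0.46, adjusted p = 0.0165) and between the clones with CsA (0.48, adjusted p = 0.0074), and the clone difference was also called under quantile scaling (adjusted p = 0.0485) and cyclic loess scaling (adjusted p = 0.0438). Values of this size are dim, and a change between them may be understated.

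The largest fall with CsA was in Ifi205, a member of the PYHIN family of nucleic acid sensors whose genes are close paralogs. It had 7.41, 7.0, 6.73 and 7.25 in the unconventional clone with CsA, against 7.16, 7.35, 7.07 and 7.01 with anti-CD3 alone, and these arrays overlapped (-0.05, adjusted p = 0.88). Ifi205 had 3.61, 4.13, 3.70 and 3.46 in the conventional clone with CsA, against 7.11, 6.76, 6.44 and 6.79 with anti-CD3 alone. The change there was -3.05 (SE 0.16, adjusted p = 6.0e-12), measured against a level near background, and the difference of effects was 3.00 (SE 0.22, adjusted p = 8.1e-09). Cross-hybridisation between paralogs was not tested for this gene, nor for the IFITM, GBP and OAS families.

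Zbp1, a sensor of Z-form nucleic acids that can trigger necroptosis, had 5.01, 5.37, 5.51 and 5.68 in the unconventional clone with CsA, against 5.21, 5.67, 5.54 and 5.62 with anti-CD3 alone. Zbp1 had 6.22, 6.19, 6.01 and 6.04 in the conventional clone with CsA, against 7.79, 7.14, 7.40 and 7.68 with anti-CD3 alone. Its arrays overlapped in the unconventional clone (-0.12, adjusted p = 0.67) and were well separated in the conventional clone (-1.39, SE 0.14, adjusted p = 1.3e-07), with a difference of 1.27 (SE 0.20, adjusted p = 1.1e-04).

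Parp14, an ADP-ribosyltransferase, ran from 7.42 to 7.56 in the unconventional clone with CsA and from 6.73 to 7.09 with anti-CD3 alone. Parp14 ran from 7.08 to 7.36 in the conventional clone with CsA and from 7.99 to 8.09 with anti-CD3 alone. It changed by 0.55 (SE 0.08, adjusted p = 2.3e-05) and by -0.86 (SE 0.08, adjusted p = 3.6e-08), a difference of 1.41 (SE 0.11, adjusted p = 2.8e-08). Its partner Parp9 changed by 0.14 (adjusted p = 0.44) in the unconventional clone and by -0.58 (adjusted p = 1.6e-04) in the conventional clone.

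Bst2, or tetherin, which holds budding virus at the cell surface, rose by 0.34 (SE 0.10, adjusted p = 0.014) in the unconventional clone and changed by -0.57 (SE 0.10, adjusted p = 9.2e-05) in the conventional clone. The RNA sensor Ifih1 rose by 0.62 (adjusted p = 2.2e-04) and the RNA-activated kinase Eif2ak2 by 0.48 (adjusted p = 7.9e-04) in the unconventional clone. In the conventional clone these sensors changed by -0.07 and -0.16 and were not called. The sensor Dhx58 and the nucleotide phosphohydrolase Samhd1 were called with CsA in neither clone.

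A smaller set of effectors rose with CsA in both clones. Isg20, an exonuclease, had 8.65, 8.39, 8.60 and 8.72 in the unconventional clone with CsA, against 8.09, 8.43, 8.17 and 8.40 with anti-CD3 alone, and these arrays overlapped. Isg20 had 11.93, 11.96, 11.99 and 11.90 in the conventional clone with CsA, against 10.94, 10.59, 10.63 and 11.12 with anti-CD3 alone. The rise was 0.32 (SE 0.11, adjusted p = 0.037) in the unconventional clone and 1.13 (SE 0.11, adjusted p = 5.6e-08) in the conventional clone. The Isg20 difference of effects, -0.81 (SE 0.15, adjusted p = 7.2e-04), ran against most of those above. It had the sign of the Irf8 difference (-0.63) and of the uncalled Nlrc5 difference (-0.31).

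Mx1, an antiviral GTPase, was dim and rose by 0.74 (SE 0.14, adjusted p = 3.2e-04) in the unconventional clone and by 1.16 (SE 0.14, adjusted p = 8.5e-07) in the conventional clone, where its level with CsA ran from 5.10 to 5.81. Ifitm1 and Ifitm2, membrane proteins that block virus entry, were bright. Ifitm2 rose by 0.67 (SE 0.12, adjusted p = 1.7e-04) and by 1.28 (SE 0.12, adjusted p = 2.7e-08), and Ifitm1 by 0.66 (SE 0.14, adjusted p = 8.3e-04) and by 0.82 (SE 0.14, adjusted p = 5.7e-05), in the unconventional and the conventional clone in that order. The other probe sets of Ifitm1 and Ifitm2 were called in the same direction in both clones.

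Ifitm3, the third gene of this family, had 4.32, 5.72, 6.38 and 5.77 in the unconventional clone with CsA, against 3.98, 4.99, 5.13 and 3.66 with anti-CD3 alone. Ifitm3 had 11.33, 11.65, 11.40 and 11.40 in the conventional clone with CsA, against 11.26, 10.68, 10.92 and 11.44 with anti-CD3 alone. The arrays overlapped between drug conditions in both clones. The change of 1.11 (SE 0.34, adjusted p = 0.020) in the unconventional clone was lost without any of 5 arrays, CsA replicates 2, 3 and 4 and anti-CD3 replicates 1 and 4 (adjusted p 0.0541 to 0.0930), and with another variance model (adjusted p = 0.0730).

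All 7 class I antigen processing genes were called higher with CsA in the unconventional clone, with changes between 0.20 and 0.66, while in the conventional clone 2 rose and 2 fell. Of all genes, 12.6% were higher with CsA in the unconventional clone, and 15.9% were higher and 15.5% lower in the conventional clone. With each array centred on its median, Psmb8, Tap1 and B2m kept their direction and lost their call (adjusted p 0.1588 to 0.2063). Fitting only the 2 groups of the contrast, Psmb8 (adjusted p = 0.1020) and Tap1 (adjusted p = 0.0773) were not called. With array weights Psmb8 was not called either (adjusted p = 0.0513). The call of Psmb8 was also lost in 15 of the 16 fits that left out 1 array, all but the one without unconventional anti-CD3 replicate 4, with changes between 0.13 and 0.25, and that of Tap1 without any of 6 arrays of the unconventional clone, CsA replicates 2, 3 and 4 and anti-CD3 replicates 1, 2 and 3, with changes between 0.14 and 0.21. The lowest change of both was without the unconventional anti-CD3 replicate 1.

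Tapbp, or tapasin, which holds the transporter to empty class I molecules, had 11.34, 11.32, 11.26 and 11.27 in the unconventional clone with CsA, against 10.38, 10.78, 10.69 and 10.70 with anti-CD3 alone. Tapbp had 10.18, 10.08, 10.13 and 10.26 in the conventional clone with CsA, against 10.71, 10.66, 10.69 and 10.71 with anti-CD3 alone. The groups with anti-CD3 alone overlapped between the clones, and CsA separated them in opposite directions. The changes were 0.66 (SE 0.08, adjusted p = 1.6e-06) and -0.53 (SE 0.08, adjusted p = 1.1e-05), with a difference of 1.19 (SE 0.11, adjusted p = 1.4e-07).

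Psmb10, a catalytic subunit of the immunoproteasome, followed the same pattern, with 0.37 (SE 0.06, adjusted p = 1.5e-04) in the unconventional clone and -0.39 (SE 0.06, adjusted p = 5.5e-05) in the conventional clone. Psmb9, another catalytic subunit, rose by 0.60 (SE 0.09, adjusted p = 5.1e-05) in the unconventional clone, with values from 9.01 to 9.33 with CsA against 8.44 to 8.86 with anti-CD3 alone, and was not called in the conventional clone (0.15, adjusted p = 0.27). The peptide transporter gene Tap2 rose by 0.30 (adjusted p = 0.0017) in the unconventional clone and by 0.68 (adjusted p = 8.2e-08) in the conventional clone. Psmb8 rose by 0.30 (SE 0.08, adjusted p = 0.0075) in the conventional clone, where Tap1 was not called (-0.08, adjusted p = 0.47). The Tap1 difference of effects, 0.28, was not called as reported (adjusted p = 0.0600). It was called under quantile scaling, among brighter genes, with a trended robust variance and without unconventional anti-CD3 replicate 4 (adjusted p 0.0241 to 0.0336). B2m, the light chain of class I molecules, rose by 0.22 (adjusted p = 0.0085) in the unconventional clone and was not called in the conventional clone (0.10, adjusted p = 0.27). Under cyclic loess scaling the B2m change in the conventional clone was called (0.16, adjusted p = 0.0333).

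The clones were then set against each other at the same drug condition. These contrasts use the same arrays as the CsA contrasts and are no independent evidence of them. With anti-CD3 alone, 25 of 41 members were lower in the unconventional clone and 3 were higher, against 21.7% and 20.3% of all genes (42.0% either way). The median difference was -0.41 over the members and -0.07 over all genes. Arrays did not overlap for 26 members, 23 below and 3 above, against 38.6% of all genes. At least 2-fold differences numbered 12 lower and 0 higher, where 3.33% and 4.41% of all genes had them. With each array centred on its median, 58.8% of all called genes were higher in the unconventional clone, against 48.3% as reported, and 14.3% of the called members, against 10.7%.

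With anti-CD3 and CsA, 16 members were lower and 11 higher in the unconventional clone, where 44.2% of all genes were called either way, 4581 lower and 4240, or 21.3%, higher. The median difference was -0.04 over the members and -0.08 over all genes. Arrays did not overlap for 28 members, 17 below and 11 above, against 42.2% of all genes. At least 2-fold differences numbered 5 lower and 5 higher, where 4.27% and 5.57% of all genes had them.

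All 6 transcription factors were lower in the unconventional clone with anti-CD3 alone, against 21.7% of all genes. Irf7 differed by -1.80 (SE 0.14, adjusted p = 1.1e-09), Irf8 by -1.65 (SE 0.08, adjusted p = 6.6e-13) and Nlrc5 by -1.02 (SE 0.09, adjusted p = 8.7e-09). The differences of Irf9 (-0.36), Stat2 (-0.34) and Irf1 (-0.27) were smaller, and that of Irf1 lost its call with centred arrays (adjusted p = 0.0861) and without unconventional anti-CD3 replicate 3 or conventional anti-CD3 replicate 4 (adjusted p 0.0813 and 0.1096). With CsA, Irf1 was higher in the unconventional clone by 1.80 (SE 0.09, adjusted p = 3.0e-12) and Irf9 by 0.79 (SE 0.08, adjusted p = 6.2e-08), Irf7 (0.21) and Stat2 (0.02) were not called, and Irf8 (-2.28, SE 0.08) and Nlrc5 (-1.33, SE 0.09) stayed lower. All 19 Nlrc5 probe sets were called lower in both of these contrasts.

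Ifitm3 gave the largest difference of all members. The unconventional clone differed from the conventional clone by -6.64 with anti-CD3 alone (SE 0.34, adjusted p = 3.4e-12) and by -5.90 with CsA (SE 0.34, adjusted p = 1.3e-11). In the unconventional clone its values lay in the range of dim probe sets, so these differences may be understated. The neighbouring genes on chromosome 7 did not share its size: Ifitm1 differed by -0.56 with anti-CD3 alone and by -0.72 with CsA, and Ifitm2 by 0.59 with anti-CD3 alone and by -0.02 with CsA, the last not called. Ifitm2 lies at chr7:140954837-140959686, Ifitm1 at chr7:140967429-140969827 and Ifitm3 at chr7:141009590-141010744 in GRCm38.p6.

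Isg20 was lower in the unconventional clone by a wide margin too, with differences of -2.55 (SE 0.11, adjusted p = 1.8e-13) with anti-CD3 alone and -3.36 (SE 0.11, adjusted p = 1.8e-15) with CsA. Irgm1 differed by -2.10 (SE 0.13, adjusted p = 3.5e-11) and -0.94 (SE 0.13, adjusted p = 3.0e-06), and Zbp1 by -1.99 (SE 0.14, adjusted p = 4.9e-10) and -0.72 (SE 0.14, adjusted p = 2.9e-04), in the same order. Gbp3 differed by -1.25 (adjusted p = 1.2e-09) with anti-CD3 alone and was not called with CsA (-0.12, adjusted p = 0.31), and Parp14 differed by -1.13 (adjusted p = 4.2e-10) with anti-CD3 alone and by 0.28 (adjusted p = 0.0075) with CsA. Dhx58 was lower in both (-0.91 and -0.89).

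A few members were higher in the unconventional clone. Samhd1, which breaks down deoxynucleotides, ran from 9.12 to 9.23 in the unconventional clone with CsA and from 8.05 to 8.22 in the conventional clone with CsA, a difference of 1.06 (SE 0.10, adjusted p = 3.1e-08). With anti-CD3 alone it ran from 8.92 to 9.14 in the unconventional clone and from 8.0 to 8.56 in the conventional clone, a difference of 0.73 (SE 0.10, adjusted p = 6.7e-06). Ifi205 differed by 3.37 (SE 0.16, adjusted p = 4.0e-13) with CsA, against the near-background level in the conventional clone, and by 0.37 (adjusted p = 0.061) with anti-CD3 alone. Gbp5 differed by 0.97 (adjusted p = 3.2e-04) and Bst2 by 0.87 (adjusted p = 2.5e-07) with CsA.

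The class I processing genes divided by gene. With anti-CD3 alone, 5 of 7 were lower in the unconventional clone and 1 was higher, and with CsA 4 were lower and 2 higher. Of all genes, 21.7% were lower and 20.3% higher with anti-CD3 alone, and 4581 of 19938 were lower and 21.3% higher with CsA. The 4 members lower in both conditions were Psmb9, Tap1, Psmb8 and Tap2. They follow one another in that order between 34182030 and 34216321 on chromosome 17 of GRCm38.p6. Psmb9 differed by -1.43 (SE 0.09, adjusted p = 1.3e-10) with anti-CD3 alone and by -0.98 (SE 0.09, adjusted p = 2.7e-08) with CsA. Tap1, whose start lies 225 bases from that of Psmb9, differed by -1.12 (SE 0.07, adjusted p = 4.8e-11) and -0.84 (SE 0.07, adjusted p = 2.4e-09), Tap2 by -1.01 (SE 0.07, adjusted p = 1.7e-10) and -1.39 (SE 0.07, adjusted p = 8.7e-13), and Psmb8 by -0.55 (SE 0.08, adjusted p = 1.8e-05) and -0.62 (SE 0.08, adjusted p = 3.1e-06).

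Tapbp, which lies at 33919478 to 33929290 on the same chromosome, and Psmb10, on chromosome 8, did not follow them. Tapbp did not differ with anti-CD3 alone beyond its spread (-0.05, SE 0.08, adjusted p = 0.60) and was higher by 1.13 (SE 0.08, adjusted p = 1.3e-10) with CsA. Psmb10 was higher in the unconventional clone by 0.25 (SE 0.06, adjusted p = 0.0036) with anti-CD3 alone and by 1.00 (SE 0.06, adjusted p = 5.1e-11) with CsA. B2m differed by -0.27 (adjusted p = 0.0011) with anti-CD3 alone and by -0.14 (adjusted p = 0.061) with CsA. The B2m difference with CsA was called under cyclic loess scaling, among brighter genes and with a trended robust variance (adjusted p 0.0041 to 0.0239). It was also called with array weights and without unconventional anti-CD3 replicate 1 (adjusted p = 0.0471 in both).

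The standard proteasome went the other way from Psmb8 and Psmb9. In the immunoproteasome, Psmb8, Psmb9 and Psmb10 replace the constitutive catalytic subunits Psmb5, Psmb6 and Psmb7. Psmb5 was higher in the unconventional clone by 0.53 (SE 0.08, adjusted p = 2.2e-05) with anti-CD3 alone and by 0.70 (SE 0.08, adjusted p = 5.0e-07) with CsA, Psmb6 by 0.40 and 0.61, and Psmb7 by 0.37 and 0.52. Of 24 measured standard subunits, 17 were higher and 1 lower in the unconventional clone with anti-CD3 alone (median 0.30), and 20 were higher and 0 lower with CsA (median 0.38), led by Psma3 (0.86 and 0.99) and Psmc6 (0.94 and 0.76). Of all genes, 20.3% were higher and 21.7% lower with anti-CD3 alone, and 21.3% higher and 4581 of 19938 lower with CsA. The CsA effect of 0 of these 24 differed between the clones at an adjusted p under 0.05 by limma, and 2 had an unadjusted p under 0.05. The interferon-inducible activator genes Psme1 and Psme2 were also higher in the unconventional clone, Psme1 by 0.94 with anti-CD3 alone and 1.29 with CsA, and Psme2 by 0.83 and 1.41.

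**Figure D4:**
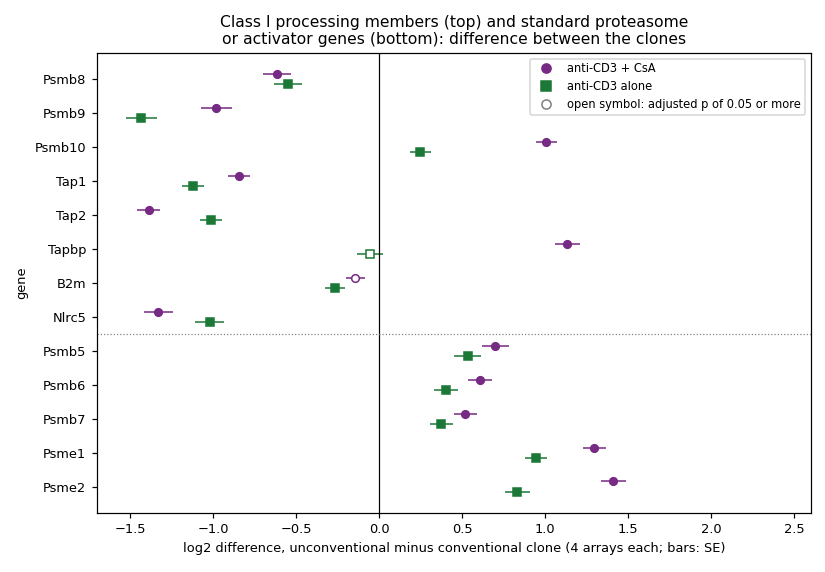
Log2 difference between the unconventional and the conventional clone (SE bars, 4 arrays each) with anti-CD3 and CsA (circles) and with anti-CD3 alone (squares), for the 7 class I processing members and Nlrc5 above the dotted line and for standard catalytic subunits and activator genes below it. Psmb8, Psmb9, Tap1, Tap2 and Nlrc5 lie below 0 in both conditions, and Psmb10, Psmb5, Psmb6, Psmb7, Psme1 and Psme2 above 0.

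Class I heavy chain genes were measured for 11 of 22 listed genes. H2-K1 and H2-D1, the classical chains, were not on a probe set with 1 symbol and were not analysed here. Of the 11, 8 were lower and 0 higher in the unconventional clone with anti-CD3 alone (median -0.86), and 9 were lower and 0 higher with CsA (median -1.11), against 21.7% of all genes lower with anti-CD3 alone and 4581 of 19938 with CsA. H2-T24 differed by -2.79 with anti-CD3 alone and by -2.56 with CsA, and H2-Q4 by -0.94 and -1.22. With CsA, 3 rose and 0 fell in the unconventional clone, and 8 rose and 1 fell in the conventional clone, against 12.6% of all genes rising in the unconventional clone and 15.9% in the conventional clone. H2-T10 rose by 1.46 (SE 0.07, adjusted p = 3.5e-12) in the conventional clone and by 0.32 (SE 0.07, adjusted p = 0.0020) in the unconventional clone, and H2-Q10 by 1.41 in the conventional clone (0.04, adjusted p = 0.82, in the unconventional clone). Heavy chain genes are close paralogs, and cross-hybridisation was not tested. Among 16 genes of peptide loading and trimming, 7 were higher and 6 lower in the unconventional clone with anti-CD3 alone, against 20.3% and 21.7% of all genes, and the aminopeptidase Lap3, higher there by 0.76 and with CsA by 1.31, fell with CsA in both clones (-0.36 in the unconventional clone and -0.92 in the conventional clone).

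The ligand and receptor genes of the pathway are given beside the members. Ifng averaged 7.93 in the unconventional clone with CsA against 13.21 with anti-CD3 alone, and 10.55 in the conventional clone with CsA against 13.98 with anti-CD3 alone, so it fell in both clones and furthest in the unconventional clone (difference of effects -1.85, adjusted p = 5.9e-08). Of the other 14 measured interferon genes, Ifna4 and Ifnl2 were called lower with CsA in the unconventional clone (-0.28 and -0.85) and Ifna4 and Ifna9 in the conventional clone (-1.19 and -0.32), and Ifnb1 stood at 3.60 to 3.78 and was called in no contrast. The receptor genes Ifngr1 and Ifnar1 rose with CsA in the unconventional clone by 0.58 and 0.40 and were not called in the conventional clone (0.05 and -0.04). Both differences were called, at 0.53 (adjusted p = 0.022) and 0.44 (adjusted p = 0.0028). The other chains of these receptors, Ifngr2 and Ifnar2, are not given here.

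Among 21 receptor and proximal signalling genes, 6 rose and 5 fell with CsA in the unconventional clone, and 2 rose and 7 fell in the conventional clone, where 12.6% and 12.3% of all genes rose and fell in the unconventional clone and 15.9% and 15.5% in the conventional clone. Jak2, a kinase of the interferon gamma receptor, averaged 8.02 in the unconventional clone with CsA against 7.96 with anti-CD3 alone, and 8.28 in the conventional clone with CsA against 9.56 with anti-CD3 alone. Its change of -1.28 (SE 0.08, adjusted p = 1.6e-11) in the conventional clone and the difference of 1.34 (adjusted p = 8.6e-09) resembled those of Irf1 and Irf7 in direction. The feedback inhibitor Socs3 changed by -0.72 in the unconventional clone and by -3.18 in the conventional clone, and Socs1 by -1.06 and -1.43, the difference being called for Socs3 (2.45, adjusted p = 1.4e-08) and not for Socs1 (0.38, adjusted p = 0.078). Irf4, a factor induced by receptor signalling, changed by -1.05 in the unconventional clone and by -0.82 in the conventional clone, and the difference was not called (-0.23, adjusted p = 0.14).

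Of 13 measured genes of nucleic acid sensing, 3 rose and 0 fell with CsA in the unconventional clone, and 5 rose and 3 fell in the conventional clone. Over all genes 24.9% were called either way in the unconventional clone and 31.4% in the conventional clone. The RNA sensor gene Ddx58 rose by 1.33 (adjusted p = 8.5e-10) in the conventional clone and was not called in the unconventional clone (0.10, adjusted p = 0.54), a difference of -1.23 (adjusted p = 1.6e-06) that ran against that of Ifih1. The kinase Ikbke rose in both, by 0.81 and 0.80, and its difference was not called (0.01, adjusted p = 0.98).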

How the data were processed

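Expression came as deposited log2 values, 1 per probe set and array, and the scale was read from their range, 2.08 to 14.55. Per the submitters' processing notes, the authors used GCOS, Partek 6.2 and RMA, whose roles are not stated. Build and annotation: not given in the sources used here. If RMA made the arrays alike in distribution, as it usually does, a change shared by most transcripts would not show, and differences between dim values would be compressed. There are no read counts behind array values, and precision is limited by the number of arrays. Labels and headers gave no scan or batch, so batch was not tested.

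The platform annotation gave 1 symbol to 21789 of 28853 probe sets, several to 1621 and none to 5443, and 999 genes had more than 1 probe set. Entrez IDs of 99.6% of the probe sets with 1 symbol were in the GRCm38.p6 gene table.

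With limma 3.58.1 (R 4.3.3), 4 group means were estimated per gene from the 16 arrays, followed by empirical Bayes moderation (12 residual degrees of freedom, median 18.8 when moderated) and two-sided tests, Benjamini-Hochberg adjusted over 19938 genes. Contrasts were the CsA effect in either clone, the difference between those effects, and the clone difference in either drug condition. These steps were tested on simulated data. Alternatives were quantile, cyclic loess and median scaling, brighter genes, averaging of probe sets, a trended robust variance, array weights, a replicate block, fitting a contrast's own groups, and leaving out single arrays.

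Named members are those called with at least a 2-fold change in a contrast or, where fewer than 6 met this, the 6 called ones with the largest change. Irf1, Irf7, Irf9, Stat2, Ifit1, Psmb8, Psmb9, Tap1, B2m, Nlrc5 and chosen ligand, receptor and standard catalytic subunit genes were set in advance to be named. So were up to 3 called genes of each further list, but many of these are not given here. Among those left out are Ifi203, Il10rb, Ptpn6, Ticam1, Tbk1, Mr1, H2-M3 and Sp100. Not every contrast of the genes that are given is shown, and the receptor genes Ifngr2 and Ifnar2 are not given. Other names were chosen after their values were seen. The members and lists themselves were chosen with earlier results of these data known.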

Additional observations from a re-analysis of the deposited data

Results flagged for a closer look

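The effect of CsA differed between the clones, by a test of the difference itself, for 24 of the 41 measured members, against 16.3% of all genes. The effect was higher in the unconventional clone for 19 and lower for 5. Of the 19, 10 were at least 2-fold: 3.00 for Ifi205 (adjusted p = 8.1e-09), 2.07 for Irf1 (adjusted p = 1.5e-09), 2.00 for Irf7 (adjusted p = 2.8e-07), 1.57 for Gbp5 (adjusted p = 3.4e-04), 1.41 for Parp14 (adjusted p = 2.8e-08), 1.27 for Zbp1 (adjusted p = 1.1e-04), 1.19 for Tapbp (adjusted p = 1.4e-07), 1.17 for Irgm1 (adjusted p = 7.7e-05), 1.15 for Irf9 (adjusted p = 3.8e-07) and 1.13 for Gbp3 (adjusted p = 4.2e-06). The other 9 were 0.90 for Bst2 (adjusted p = 7.5e-05), 0.82 for the dim Xaf1 (adjusted p = 5.2e-04), 0.76 for Psmb10 (adjusted p = 4.0e-06), 0.71 for Parp9 (adjusted p = 0.0017), 0.69 for Ifih1 (adjusted p = 0.0035), 0.64 for Eif2ak2 (adjusted p = 0.0023), 0.45 for Psmb9 (adjusted p = 0.0222), 0.39 for Ifi35 (adjusted p = 0.0413) and 0.36 for Stat2 (adjusted p = 0.0325). The 5 of the opposite sign were -0.81 for Isg20 (adjusted p = 7.2e-04), -0.63 for Irf8 (adjusted p = 2.6e-04), -0.61 for Ifitm2 (adjusted p = 0.0140), -0.38 for Tap2 (adjusted p = 0.0084) and -0.37 for the dim Rsad2 (adjusted p = 0.0469).

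In 6 of 164 sets of 4 arrays, 1 array lay far from the others of its group, and chance gives about 1 in 20. Irf9 stood at 7.72 in the unconventional anti-CD3 replicate 1, against 7.99 to 8.04 in the other arrays of the group. Psmb8 stood at 11.06 in the unconventional CsA replicate 4, against 10.96 to 10.97, and Parp9 at 7.93 in the unconventional CsA replicate 2, against 8.13 to 8.14. Mx1 stood at 4.19 in the unconventional anti-CD3 replicate 2, against 4.05 to 4.07, and Ifit1 at 4.09 in the conventional anti-CD3 replicate 2, against 3.75 to 3.77. Ifih1 stood at 5.03 in the conventional CsA replicate 3, where the lowest of the other arrays was 5.18.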

How the results depend on the processing

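Every count of called members stayed within 1.5 times of the reported one under the alternatives run. Leaving out single arrays, the unconventional clone with CsA gave 18 to 22 members higher and 4 to 5 lower, and the conventional clone 7 to 8 higher and 15 to 17 lower. The count of 8 members with opposite calls ran from 7 to 9, and was 6 among the brighter genes, where fewer members were tested. There the median change was -0.24 in the conventional clone, -0.58 between the clones with anti-CD3 alone, and 0.55 for the difference of effects. The median between the clones with CsA was 0.01 under quantile and under cyclic loess scaling, and -0.0425 to 0.0015 without single arrays. The Psmb9 difference of effects lost its call without any of 3 arrays (adjusted p 0.0516 to 0.0550). Same-numbered arrays correlated at -0.13 to 0.28 in their deviations, 3 of 16 pairs above 0.1. In 7 of the 16 pairs the same-numbered array was the best match in the other group. The numbers were not taken as pairs in the reported fit, and these values do not settle whether they are. A replicate block gave 23 higher and 5 lower in the unconventional clone and 8 higher and 16 lower in the conventional clone. Of 85 results for single genes, 67 kept their direction and their side of the threshold in every alternative.

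Signs turned only for uncalled values near 0. Stat2 in the conventional clone with CsA gave 0.0028 under quantile scaling and -0.0671 to 0.0191 without single arrays. Between the clones with CsA, Stat2 gave -0.1172 under quantile scaling, -0.0297 under cyclic loess, and -0.0361 to 0.0552 without single arrays. The Psmb8 difference of effects gave 0.0301 under quantile scaling and -0.1731 to 0.0043 without single arrays. Ifit1 without single arrays gave -0.0368 to 0.0751 with CsA in the conventional clone and -0.0474 to 0.1113 between the clones with anti-CD3 alone. The cause was not tested. Dim signal limits what can be said of the 9 members near background.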

Other observations

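Other interferon-stimulated genes, 60 of 74 listed, were measured beside the members. With CsA, 22 rose and 6 fell in the unconventional clone, and 15 rose and 17 fell in the conventional clone, against 12.6% and 12.3% of all genes in the unconventional clone and 15.9% and 15.5% in the conventional clone. The largest rises were shared: Herc3, a HECT ubiquitin ligase, rose by 2.45 in the unconventional clone and by 2.77 in the conventional clone (adjusted p = 6.3e-12 and 4.2e-13), and Phf11a by 2.34 and 1.76. Rnf213, a large ubiquitin ligase, changed by 0.75 in the unconventional clone and by -1.07 in the conventional clone, and Trim30a by 0.54 and -1.33. Slfn2, which keeps T cells quiescent, fell in both clones (-0.44 and -1.65).

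Between the clones the largest values had opposite signs. Ly6e, a lipid-anchored surface protein, was higher in the unconventional clone by 3.45 with anti-CD3 alone and by 4.45 with CsA, where it averaged 9.34 in the unconventional clone and 4.90 in the conventional clone. Trim30d differed by -2.69 and -1.31, and Slfn8 by -1.98 and -1.80. Among 10 further interferon-induced GTPases, 4 rose and 0 fell with CsA in the unconventional clone, against 12.6% and 12.3% of all genes. In the conventional clone 4 rose and 1 fell, against 15.9% and 15.5% of all genes. Their median change was 0.18 in the unconventional clone and 0.002 in the conventional clone, and in each group 5 of the 10 averaged below 5. Gbp7 rose with CsA in both clones, by 1.38 and 0.93, and differed between them by -1.94 with anti-CD3 alone.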
